A study of Mus musculus with 8 samples.

Results

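OCT4 CUT&RUN peaks were examined around 10 genes of the Nodal, FGF, BMP and LIF signalling pathways in mouse embryonic stem cells, namely Nodal, Tdgf1, Lefty1, Lefty2, Fgf4, Spry4, Bmp4, Id3, Lifr and Stat3. These are 10 of the 21883 protein-coding genes of the RefSeq table of GRCm38.p6 on the autosomes, X and Y. A peak summit was counted for a gene where it lay inside the gene span or within 100 kb of either end. The windows of Lefty1 and Lefty2 overlap and were joined for totals, which left 9 windows of 2.05 Mb in all, or 0.0752% of the chromosomes. They held 26 of the 20955 summits in the deposited lists, and these summits fell into 17 sites, a site being a stretch of regions that overlap between libraries by at least 1 bp.

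CUT&RUN uses an antibody to bring a nuclease to a bound protein, and the DNA that is cut free is sequenced. OCT4 was profiled in this way in male E14 embryonic stem cells, which the labels give as strain C57BL/6J, without feeders and with no treatment. All libraries came from cells in N2B27 medium with LIF and the 2 inhibitors of the 2i formula, 1 of GSK and 1 of MEK, the kinase that acts downstream of FGF receptors. The released DNA went into 3 preparations with 2 replicates each. Conventional libraries read the DNA as it is, bisulfite libraries were reduced to methylated reads before peaks were called, and hmC-Seal libraries hold fragments pulled down by their 5-hydroxymethylcytosine. Bisulfite sequencing does not separate 5-methylcytosine from 5-hydroxymethylcytosine, so a read called methylated here may hold either. The study's methods name the conventional and bisulfite libraries as pools, and no source used here says that replicates came from separate cultures, so the spread between replicates may be technical. No IgG library of the hmC-Seal preparation is among the samples. The hmC-Seal folds therefore set a pull-down against IgG that was not pulled down, and 5-hydroxymethylcytosine capture and OCT4 binding cannot be told apart in them. The lists hold no expression values, so the labelled cell type was not checked against marker genes.

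OCT4 is a POU-domain factor that holds embryonic stem cells in the pluripotent state. Nodal is a secreted ligand of the TGF-beta family that signals with the co-receptor encoded by Tdgf1 and is antagonised by the secreted Lefty proteins. FGF4 is the main autocrine FGF of these cells and drives ERK signalling and exit from self-renewal, which Sprouty proteins restrain. LIF binds the receptor encoded by Lifr and activates STAT3, and BMP4 induces Id genes, and both routes are known to favour self-renewal in culture.

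The lists differ widely in length and depth. By the study's methods, conventional libraries were made from 5 ng of DNA, and hmC-Seal and bisulfite libraries from 30 ng. Target read numbers also differed by preparation, so input and sequencing effort cannot be told apart from preparation. Conventional replicates 1 and 2 hold 227 and 265 summits, bisulfite replicates 2797 and 2077, and hmC-Seal replicates 3974 and 11615. Background coverage, 1 value per library estimated from the folds over IgG and −log10 p of its summits, lay between 0.303 and 0.887 in 5 libraries. It was 0.156 in hmC-Seal replicate 2. That library has the longest list and the fewest fragments per summit, with a median of 5 estimated fragments against 12 to 19 in the others. It stands apart, and the main counts are given with and without it, an alternative chosen after the data were seen. Without it, 16 summits at 9 sites were left in the windows, and 3 of these sites were called in more than 1 library.

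Modified-DNA preparations had summits at 8 of the 10 genes, where 75.4% of all protein-coding genes had one in some library by the same rule. Without hmC-Seal replicate 2, 6 of the 10 genes had a summit, against 42.7% of all genes. Conventional libraries had none at any of the 10, and only 2.03% and 2.32% of all genes had one in replicates 1 and 2. Conventional replicates 1 and 2 placed 0 of 227 and 0 of 265 summits in the windows, which allows shares of up to 1.32% and 1.13%. Bisulfite replicates 1 and 2 placed 2 and 4 summits there, and hmC-Seal replicates 1 and 2 placed 10 each. Spry4 and Bmp4 had no summit in any library. The windows would hold 0.151 and 0.183 conventional summits if summits lay at the mean density of the same chromosomes, so the zeros cannot be told from that density with lists of this length.

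**Figure D1:**
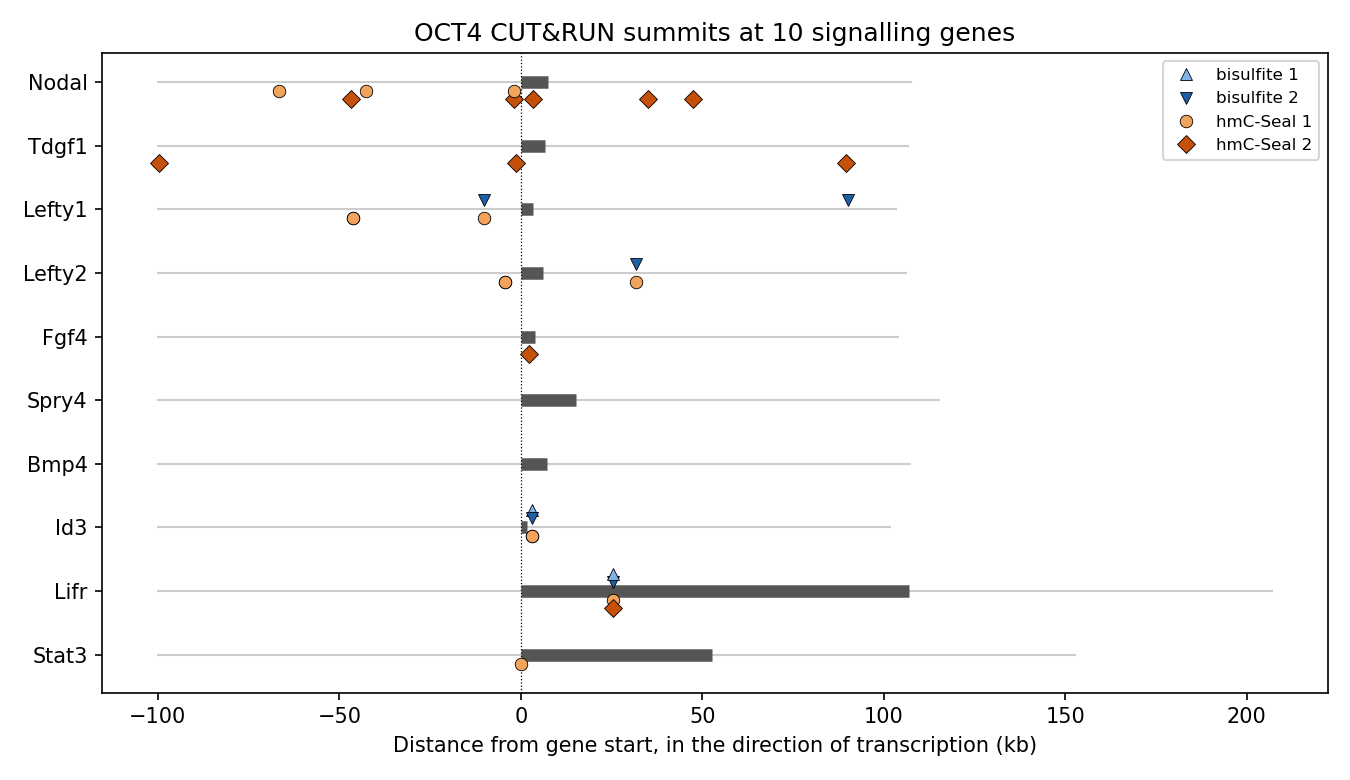
Position of every OCT4 summit (symbols, coloured by library) relative to the gene start for the 10 genes, in kb along the direction of transcription, with the gene span as a dark bar and the window as a grey line. Summits of Lifr from 4 libraries fall on 1 position, those of Nodal are spread over 7 sites, and Spry4 and Bmp4 have none. Summits between Lefty1 and Lefty2 are drawn on both lines.

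As shares of each list, summits in the windows made up 0.0715% and 0.193% of the bisulfite lists and 0.252% and 0.0861% of the hmC-Seal lists. The mean share was 0.169% ± 0.117 (SD, n = 2) in hmC-Seal, 0.132% ± 0.0856 (SD, n = 2) in bisulfite and 0% in both conventional libraries. In two-sided exact permutation tests over libraries, hmC-Seal exceeded conventional by 0.169 percentage points (p = 0.333) and bisulfite exceeded conventional by 0.132 percentage points (p = 0.333). The difference of 0.0368 percentage points between hmC-Seal and bisulfite had an exact permutation p of 0.667. With 2 libraries against 2 the smallest possible p is 0.333, so none of the 3 comparisons could pass a threshold of 0.05. The difference between hmC-Seal and bisulfite turned to -0.0459 percentage points without hmC-Seal replicate 1, to -0.0237 without bisulfite replicate 1, and to -0.0224 without the Nodal window.

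Against the density of the same chromosomes, hmC-Seal replicate 1 held 10 summits where 2.99 were expected, with a 95% exact Poisson interval of 4.80 to 18.4 summits. The 10 summits of hmC-Seal replicate 2 stood against 8.90 expected. Bisulfite replicates 1 and 2 held 2 and 4 summits against 2.20 and 1.64. By preparation, the ratio of observed to expected was 1.68 for hmC-Seal (interval 1.03 to 2.60) and 1.56 for bisulfite (0.573 to 3.40). Some regions hold more than 1 summit: the 20 hmC-Seal summits lay in 18 regions, and the 10 of replicate 1 in 8. With distinct regions counted, the ratio was 1.54 for hmC-Seal and 1.61 for bisulfite, and no interval was computed for these. Without hmC-Seal replicate 2 the hmC-Seal ratio was 3.34, and without replicate 1 it was 1.12. Without the Nodal window, an alternative chosen after the data were seen, the hmC-Seal ratio was 1.14. These intervals cover counting error only, since neighbouring summits are not independent.

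**Figure D2:**
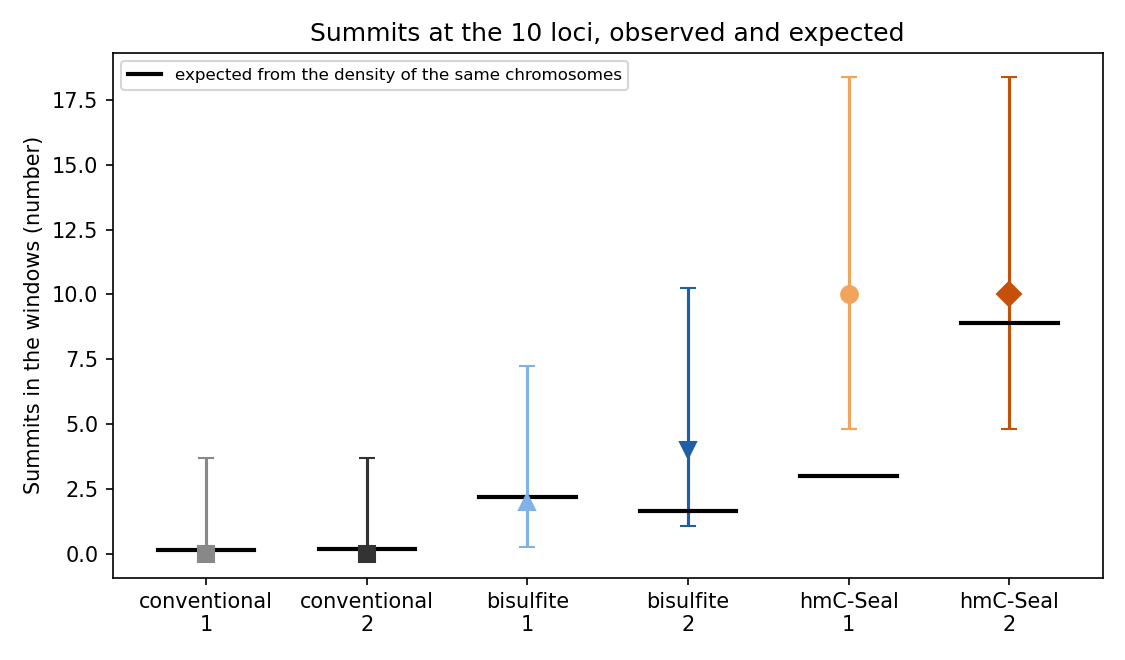
Number of summits in the 9 windows in each library (symbols) with 95% exact Poisson intervals, beside the number that the density of the same chromosomes gives for windows of that length (black bars). In hmC-Seal replicate 1 the interval, from 4.80 to 18.4, lies above the 2.99 expected, and in the other 5 libraries the interval includes the expected number.

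Windows of this size often hold a summit by their length alone, so the genes are read against all protein-coding genes with the same rule in each library. In bisulfite replicate 1 the background was 21.8% and 2 of the 10 had a summit, and in bisulfite replicate 2 it was 17.3% and 4 of 10 had one. For hmC-Seal the background was 30.6% in replicate 1, against 6 of 10, and 64.1% in replicate 2, against 4 of 10. A summit in both bisulfite replicates was found for 2 of 10 against 10.8%, and one in both hmC-Seal replicates for 2 of 10 against 23.3%. A summit in 3 or more libraries was found for Id3 and Lifr, 2 of 10 against 16.5%. These shares lay on either side of the background, and neighbouring genes share windows. The median window was 207 kb for the 10 genes and 217 kb for all.

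Calls shared by both modified-DNA preparations were present at 4 genes. Since bisulfite reads may hold either modification, a shared call does not show that both were present. Lefty1, Lefty2, Id3 and Lifr had a summit in a bisulfite and in an hmC-Seal library, 4 of 10 where 24.3% of all genes did. The same 4 genes had 1 site that both preparations called, against 14.9% of all genes, although the site of Lefty1 and that of Lefty2 are the same stretch. One site called in all 4 bisulfite and hmC-Seal libraries was present for Lifr, 1 of 10 against 3.87%. Of the 17 sites, 13 were called in hmC-Seal only, 1 in bisulfite only and 3 in both. Of the same 17, 13 were called in 1 library, 2 in 2, 1 in 3 and 1 in 4 libraries, so 4 were called in more than 1. These splits were not computed for all sites of the lists. Of all 20955 summits, 15589 are in hmC-Seal lists and 4874 in bisulfite lists, so the splits do not set these genes apart.

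**Figure D3:**
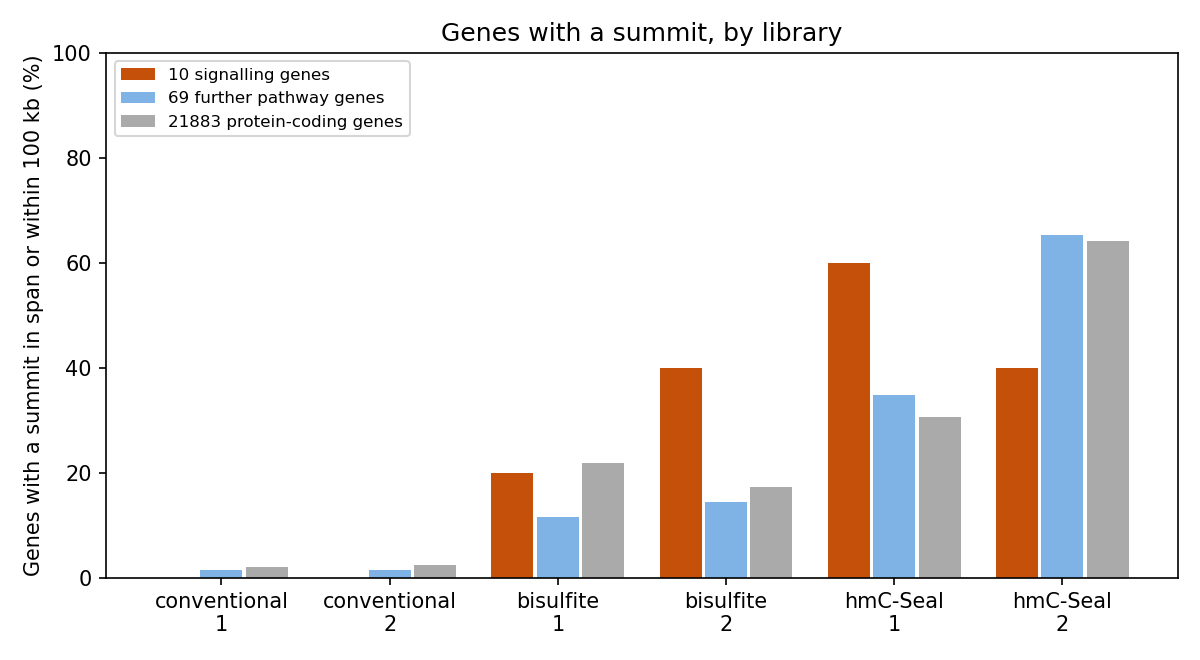
Percent of genes with at least 1 summit in the span or within 100 kb, by library, for the 10 signalling genes, 69 further genes of the same pathways and all 21883 protein-coding genes. The 10 genes stand above the others in bisulfite replicate 2 and hmC-Seal replicate 1, below them in hmC-Seal replicate 2, and at 0% in both conventional libraries.

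Of the 10 genes, the ligand gene Nodal (chr10:61417972-61425338) had the most summits. No summit lay in its window in either conventional or either bisulfite library. hmC-Seal replicate 1 had 3 summits there, and replicate 2 had 5. The 8 summits stood against 1.81 expected from the density of chromosome 10 (interval 3.45 to 15.8), and 686 genes, or 3.13% of all, had at least as many. Without hmC-Seal replicate 2, the 3 summits left stood against 0.832 expected (interval 0.619 to 8.77), and 12.1% of all genes had at least as many. All 8 summits together formed 7 sites, spread from 66.6 kb upstream to 47.5 kb downstream of the gene start.

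One Nodal site was shared by both hmC-Seal replicates. It lies 1.89 kb upstream of the start, at chr10:61415971-61416200. The fold enrichment over the IgG background was 9.85 in hmC-Seal replicate 1, rank 1274 of 3974 by −log10 q, and 3.46 in replicate 2, rank 8501 of 11615. The second value rests on 3 estimated fragments and the first on 18. A further site inside the Nodal span, 3.34 kb from the start, had a fold of 7.14 in hmC-Seal replicate 2 and was not called in replicate 1.

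The other 5 Nodal sites were called in 1 library each and lie in or near other genes. Sites 66.6, 46.7 and 42.5 kb upstream of the Nodal start fall inside the span of Pald1, with folds of 9.40 in hmC-Seal replicate 1, 6.92 in replicate 2 and 8.32 in replicate 1. The site 35.2 kb downstream of the start lies 337 bp from Eif4ebp2, which encodes an inhibitor of translation initiation, with a fold of 7.37 in hmC-Seal replicate 2. Within the list of hmC-Seal replicate 2, the best rank at Nodal, 1360 of 11615, belonged to the site 47.5 kb downstream, with a fold of 8.43. Within that of replicate 1 it belonged to the site 66.6 kb upstream, rank 1226 of 3974. A window thus assigns these sites to Nodal by distance alone.

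Tdgf1 (chr9:110939608-110946158, minus strand), which encodes the Nodal co-receptor Cripto, had summits only in hmC-Seal replicate 2, where 3 were called. The nearest lay 1.44 kb upstream of the start with a fold of 3.94 and 4 estimated fragments. The best ranked, 5794 of 11615, lay 89.5 kb downstream of the start and 131 bp from Prss46, with a fold of 4.32. The last of them lay 99.7 kb upstream, just inside the 100 kb limit, with a fold of 3.46. All 3 rest on 3 or 4 fragments, and none remained without that library. The 3 summits stood against 1.78 expected over all libraries (interval 0.619 to 8.77), and 30.1% of all genes had at least as many.

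Lefty1 (chr1:180935022-180938401) and Lefty2 (chr1:180893108-180899107) encode the secreted inhibitors of Nodal and are themselves targets of Nodal signalling. Their windows held 3 sites, called in hmC-Seal replicate 1 and bisulfite replicate 2 and in no other library. The site between the genes, at chr1:180924833-180925014, lies 10.1 kb upstream of Lefty1 and 25.8 kb past the end of Lefty2, inside the span of the gene Gm39715. Its fold was 10.4 in hmC-Seal replicate 1 (rank 1134 of 3974) and 6.28 in bisulfite replicate 2 (rank 1244 of 2077), with 19 and 13 estimated fragments.

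Upstream of Lefty2, hmC-Seal replicate 1 had a region with a pair of summits at chr1:180888691-180888881. Their folds were 9.34 and 6.78, and the stronger summit lay 4.26 kb before the Lefty2 start. The third site, 90.2 kb downstream of the Lefty1 start and 7.63 kb from Ephx1, was called in bisulfite replicate 2 alone, with a fold of 6.12. It had the best rank of the Lefty sites in that library, 605 of 2077, with 33 estimated fragments. The count at Lefty1 was 5 summits against 1.56 expected (interval 1.62 to 11.7), and 11.3% of all genes had at least as many. Without hmC-Seal replicate 2, which had none there, 4.29% of all genes had at least as many. Lefty2 had 4 summits, all also counted at Lefty1, against 1.58 expected (interval 1.09 to 10.2). At least as many were found for 18.2% of all genes.

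The FGF genes held little. Fgf4 (chr7:144861386-144865245), the autocrine FGF ligand, had 1 summit in 1 library, hmC-Seal replicate 2, inside its span and 2.27 kb from the start. It had a fold of 4.32, the median fold of that list, rank 5794 of 11615 and 4 estimated fragments. Over all libraries 1.47 summits were expected at Fgf4, and 75.4% of all genes had at least 1. Spry4 on chromosome 18, an inhibitor of receptor tyrosine kinase signalling, had no summit within 100 kb in any of the 6 libraries, where 1.61 were expected over all libraries. Its nearest summit lay 233 kb away, in hmC-Seal replicate 2, with a fold of 3.46. The 95% exact Poisson interval for that count, 0 to 3.69 summits, includes the number expected.

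Of the BMP genes, the ligand gene Bmp4 (chr14:46383525-46390669, minus strand) also had no summit, against 1.43 expected. Its nearest summits lay 293 kb away in hmC-Seal replicate 2, 619 kb away in bisulfite replicate 1 and 2608 kb away in conventional replicate 2.

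Id3 (chr4:136143822-136145392), a BMP target that encodes an inhibitor of basic helix-loop-helix factors, had 1 site just past its 3′ end. The site spans chr4:136146806-136147110, and its strongest summit lies 1.48 kb beyond the gene end and 3.05 kb from the start. The region of hmC-Seal replicate 1 had a pair of summits with folds of 12.5 and 11.0, at ranks 689 and 752 of 3974. The fold was 9.34 in bisulfite replicate 1 (rank 735 of 2797) and 7.38 in bisulfite replicate 2 (rank 912 of 2077). It was not called in hmC-Seal replicate 2 or in either conventional library, so both bisulfite replicates and 1 of the 2 hmC-Seal replicates had it. The summits rest on 16 to 26 estimated fragments. Id3 had 4 summits against 1.58 expected over all libraries (interval 1.09 to 10.2), and 18.2% of all genes had at least as many.

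Another site near Id3 lay outside the window and was called in the conventional libraries too. At chr4:136317750-136318022, 172 kb from the Id3 span, summits were called in both conventional libraries with folds of 8.75 and 9.24, in both bisulfite libraries with folds of 8.23 and 11.9, and in hmC-Seal replicate 1 with a fold of 16.3. It was the only site called in more than 1 library between 100 kb and 200 kb from a span of the 10 genes. Just outside the 100 kb limit, the nearest summits were at 110 kb from Fgf4 and 110 kb from Id3, with folds of 3.46 and 4.32 in hmC-Seal replicate 2. A summit assigned to Lefty1 lies 126 kb from Lefty2. Just inside the limit were the Tdgf1 summit at 99.7 kb and the Lefty1 summit that lies 86.8 kb past the gene end.

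Of the 10 genes, Lifr was the one whose site was called in all 4 bisulfite and hmC-Seal libraries. Lifr (chr15:7090610-7197489) encodes the receptor subunit that binds LIF. The site, chr15:7115806-7115940, lies inside the gene span 25.3 kb from its start, and 13.7 kb before the start at 7129572 of the first Lifr promoter in the RefSeq table. The first hmC-Seal replicate had a fold of 17.5 and the second one of 9.51. It was 8.64 in bisulfite replicate 1 and 8.03 in bisulfite replicate 2. The ranks were 256 of 3974, 867 of 11615, 820 of 2797 and 656 of 2077 in the same order, so it stood in the first 6.44% and 7.46% of the hmC-Seal lists and the first 29.3% and 31.6% of the bisulfite lists.

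The 4 summits at Lifr lay within 33 bp of one another, and estimated fragments numbered 33, 10, 17 and 17 in the order of the folds. Across the genome, 253 sites were called in exactly these 4 libraries. Their median folds were 11.4 and 6.05 in the hmC-Seal replicates, and 7.69 and 7.93 in the bisulfite replicates. At 15.8% and 15.4% of them the hmC-Seal fold was at least that of Lifr, and at 36.0% and 48.2% the bisulfite fold was. Lifr was thus in the upper part of these sites in hmC-Seal and near the middle in bisulfite. By count, its 4 summits stood against 2.24 expected over all libraries (interval 1.09 to 10.2), and 18.2% of all genes had at least as many. No conventional summit lay within 1195 kb of Lifr, and conventional summits needed at least 8 and 7 estimated fragments in replicates 1 and 2.

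**Figure D4:**
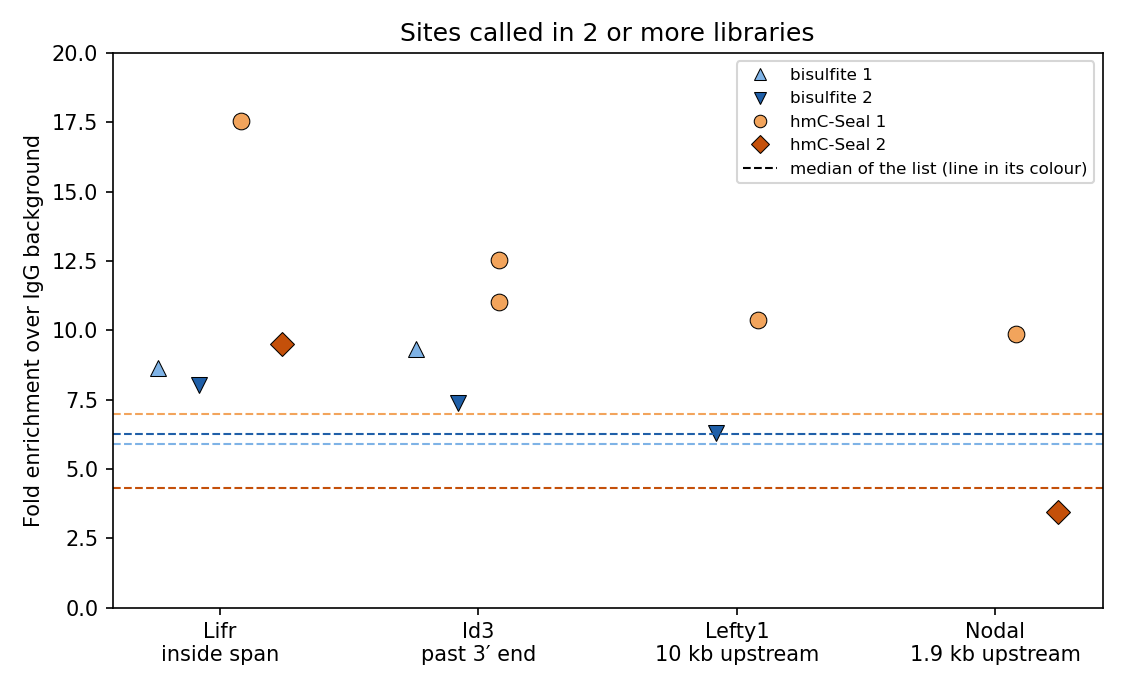
Fold enrichment over the IgG background at the 4 sites called in 2 or more libraries, 1 symbol per summit and library, with the median fold of each whole list as a dashed line in its colour. Lifr is the site with a symbol from all 4 libraries, hmC-Seal replicate 1 has the highest fold at each site, from 9.85 to 17.5, and the Nodal value of 3.46 in hmC-Seal replicate 2 lies below the median of its list. Folds are not scaled between lists.

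Stat3 (chr11:100886806-100939594, minus strand), the transcription factor activated by LIF, had 1 summit, in hmC-Seal replicate 1 only. It was the one site that overlapped a listed promoter of the 10 genes. The summit at 100939540 is the start of the gene in the RefSeq promoter table, 54 bp inside the end of the gene span. The fold was 4.92 with 17 estimated fragments, and the rank of 3260 of 3974 was the lowest of the 10 summits of that library. Over all libraries 2.27 summits were expected at Stat3, and 75.4% of all genes had at least 1. The region covers 79 bp of the 300 bp promoter window chr11:100939491-100939790, a window with 15 CpG dinucleotides, 2 of them in the covered part. At least as many CpG were found in 34.6% of all promoters, whose median was 7. The sequence is shown because it is the only listed promoter of the 10 genes with a call. The covered part runs past the start, and its 2 CpG lie in bases after the start, which are not shown. The 250 bases before the start (RefSeq, GRCm38.p6, minus strand, 5′ to 3′) follow, with the bases inside the hmC-Seal region in capitals.
Stat3: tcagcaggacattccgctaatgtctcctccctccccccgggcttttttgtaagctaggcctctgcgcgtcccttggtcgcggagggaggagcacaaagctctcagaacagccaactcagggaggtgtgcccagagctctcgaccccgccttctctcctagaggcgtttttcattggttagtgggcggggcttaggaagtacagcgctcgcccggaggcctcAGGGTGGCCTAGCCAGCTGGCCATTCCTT

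Promoters were rarely covered in any library. Of 32851 RefSeq promoters of 300 bp, 0.268% overlapped a region in hmC-Seal replicate 1, where 1 of the 8 promoters listed for 7 of the 10 genes did. In hmC-Seal replicate 2 the share was 0.183%, with 0 of the 8. The shares were 0.0578% and 0.0548% in the bisulfite libraries and 0.0244% and 0.0244% in the conventional ones, with 0 of the 8 in each. The POU octamer ATGCAAAT was searched on both strands, where it reads ATTTGCAT on the other, with no mismatch. None of the 8 promoters held it, and 1.74% of all promoters did.

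Sites lay both near the gene starts and far from them. Of the 17 sites, 4 lay inside a span of one of the 10 genes, those of Nodal, Stat3, Lifr and Fgf4. Within 5 kb of a start of the 10 genes were 7 sites, those of Nodal on both sides, Tdgf1, Lefty2, Fgf4, Id3 and Stat3, and 10 lay farther away. Such stretches make up 4.89% of the windows. The same share was not computed for all protein-coding genes, so these values do not set the 10 genes apart. Of the 7 sites, those inside Nodal, at Tdgf1 and at Fgf4 were called in hmC-Seal replicate 2 alone.

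The median rank of the summits at these genes was 27.8% of the way down the list in bisulfite replicate 1 and 37.7% in bisulfite replicate 2. It was 31.5% in hmC-Seal replicate 1 (range 6.44% to 82.0%) and 34.4% in hmC-Seal replicate 2 (7.46% to 73.2%). The median fold was 9.63 in hmC-Seal replicate 1, where the whole list had 6.97, and 5.62 in replicate 2, where the list had 4.32. The medians were 8.99 and 6.83 in the bisulfite libraries, whose lists had 5.91 and 6.26. The fragments behind these summits were close to those of the whole lists, with medians of 18.5 against 18 in hmC-Seal replicate 1 and 5.5 against 5 in replicate 2.

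**Figure D5:**
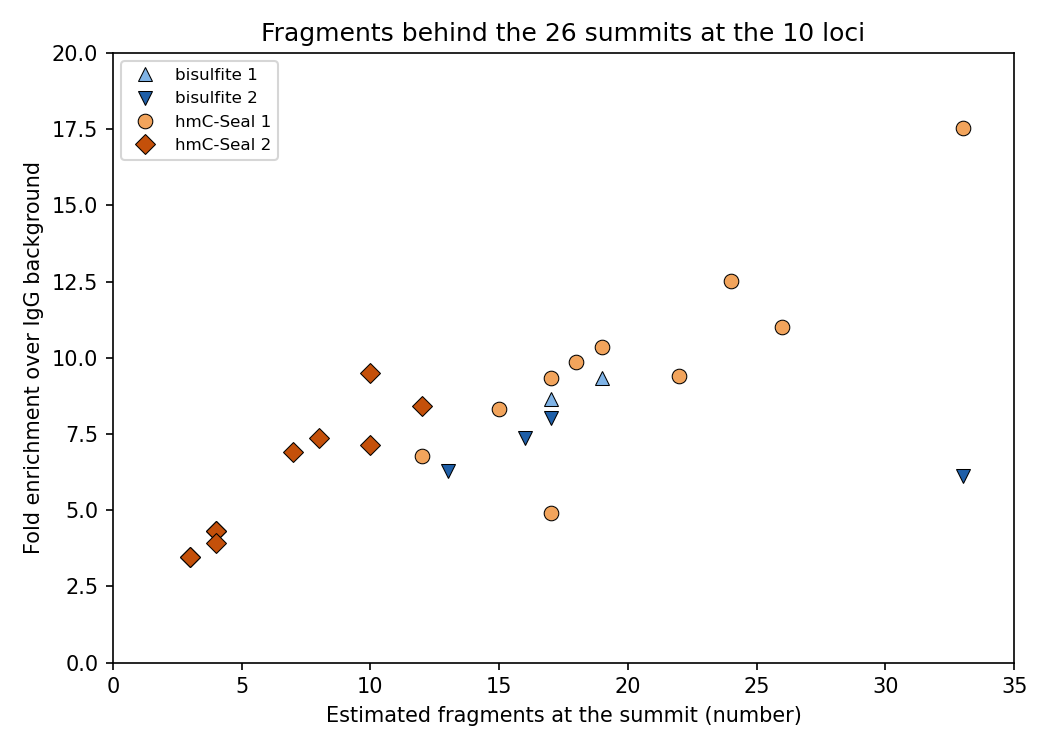
Fold enrichment over the IgG background against the estimated number of fragments for the 26 summits, 1 symbol per summit, coloured by library (some symbols of hmC-Seal replicate 2 coincide). Summits of hmC-Seal replicate 2 rest on 3 to 12 fragments and those of hmC-Seal replicate 1 on 12 to 33. The bisulfite summit with 33 fragments and a fold of 6.12 is the one near Ephx1. Fragments were estimated from the fold and −log10 p, so the axes are not independent.

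Overlap between libraries was counted for the regions at these genes. Of the 8 hmC-Seal replicate 1 regions in the windows, 2 overlapped a region of hmC-Seal replicate 2, 2 overlapped bisulfite replicate 1 and 3 overlapped bisulfite replicate 2. Over the whole list of that library the shares were 32.0%, 26.2% and 28.2%. The longer hmC-Seal list, that of replicate 2, had 10 regions there, of which 2 overlapped replicate 1, where 10.0% did over the whole list. Both regions of bisulfite replicate 1 were called again in bisulfite replicate 2, and 2 of the 4 regions of bisulfite replicate 2 were called in replicate 1, with whole-list shares of 36.7% and 50.3%. With 2 to 10 regions per library these counts do not separate the genes from the rest of the lists.

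The same rule was applied to 69 further genes of the 4 pathways, with ligands, receptors, transducers, inhibitors and targets. A summit was present for 1 of them in each conventional library, for 8 (11.6%) and 10 (14.5%) in bisulfite replicates 1 and 2, and for 24 (34.8%) and 45 (65.2%) in the corresponding hmC-Seal replicates. Over all protein-coding genes the shares were 21.8% and 17.3% for bisulfite and 30.6% and 64.1% for hmC-Seal. The pathway shares were thus lower in the bisulfite libraries and higher in the hmC-Seal libraries. These differences were not tested, and they do not set the pathway genes apart from all genes. At least 1 library had a summit at 49 genes (71.0%), and 3 or more libraries had one at 10 (14.5%), where all genes had 75.4% and 16.5%. By pathway, any library had a summit at 13 of 18 Nodal and activin genes, 13 of 20 FGF and ERK genes, 11 of 17 BMP genes and 12 of 14 LIF genes. No library had a summit at the other 20 genes.

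The 10 genes with a summit in 3 or more libraries were Gdf3 and Skil of the Nodal list, Fgf5, Dusp4 and Etv5 of the FGF list, Bmpr1a and Bambi of the BMP list, and Il6st, Cish and Tfcp2l1 of the LIF list. Skil, which encodes a repressor of SMAD signalling, had a site 5.47 kb upstream with folds of 5.48 in bisulfite replicate 2, 10.2 and 5.51 in the hmC-Seal libraries. Tfcp2l1, a transcription factor downstream of LIF and STAT3, had a site 2.32 kb upstream with a fold of 13.4 in hmC-Seal replicate 1 and folds of 5.80 and 8.03 in the bisulfite libraries. The site of Gdf3, a ligand of the TGF-beta family, that 4 libraries called lies 14.6 kb upstream and nearest to Dppa3, with folds of 13.2 and 11.5 in the bisulfite and 14.7 and 7.87 in the hmC-Seal libraries. For Bmpr1a, a BMP receptor, the site of 5 libraries lay 51.0 kb from the span and nearest to Fam25c, with folds from 4.32 to 13.0. Il6st, which encodes the receptor subunit gp130 that pairs with LIFR, had no site called in more than 1 library.

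Etv5, an ETS factor induced by FGF and ERK signalling, had the highest fold of the sites that libraries shared at these genes. It spans chr16:22439738-22439956, with its strongest summit 287 bp upstream of the start. The folds were 34.4 (rank 18) and 12.1 in the hmC-Seal libraries, 14.8 and 18.5 in the bisulfite libraries, and 21.6 in conventional replicate 2 (rank 6 of 265). Conventional replicate 1 had no call there. No site of the 10 genes had a conventional call. Like the site of Stat3 this one overlaps a promoter, and its sequence is shown for comparison. The hmC-Seal replicate 1 region covers 83 bp of the promoter window chr16:22439521-22439820, with 5 of its 37 CpG dinucleotides. The 250 bases before the start (RefSeq, GRCm38.p6, minus strand, 5′ to 3′) follow, with the bases inside that region in capitals.
Etv5: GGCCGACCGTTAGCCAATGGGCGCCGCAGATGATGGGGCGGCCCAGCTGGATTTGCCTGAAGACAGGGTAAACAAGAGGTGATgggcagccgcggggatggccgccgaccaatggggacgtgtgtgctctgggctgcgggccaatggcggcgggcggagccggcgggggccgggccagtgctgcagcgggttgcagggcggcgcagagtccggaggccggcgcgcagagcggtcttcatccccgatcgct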

How the data were processed

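OCT4 CUT&RUN was analysed in 6 libraries, 2 per preparation, with groups and replicate numbers from the labels. The 2 IgG libraries, a conventional and a bisulfite one, enter only as the background of the peak calls, and none was prepared by hmC-Seal. Per the submitters' processing notes and the methods of the study, the authors trimmed reads with fastp 0.19.4, aligned them with Bowtie2 2.4.1 or Bismark 0.22.3 to GRCm38, kept short fragments with deepTools 3.1.3 and called peaks per library with MACS 2 against IgG, without pooling and without spike-in calibration. In the deposited lists, column 7 is the fold enrichment, a ratio to the local IgG background, and the authors' −log10 p-value and −log10 q-value are those of the summit. The score deposited beside them follows from −log10 q. The lists are not scaled to one another, so folds describe each list.

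Summits were assigned to RefSeq gene spans of GRCm38.p6, which hold no exons, by a window of 100 kb. Strand came from the RefSeq promoter table, or from GENCODE M1 by symbol for Lefty1, Lefty2 and Spry4. Expected numbers are the summits of a chromosome times the share of its length in the windows. Unmappable stretches were kept in, so they are somewhat low. No random placement was drawn. Shares of lists were compared by two-sided exact permutation tests over libraries. Intervals are 95% exact Poisson intervals, and a count of 0 was read as up to 3 summits of the list. Fragments at each summit and the background coverage of each library were estimated from the folds and −log10 p by the Poisson formula of MACS 2. An estimate was reached for 76.2% to 94.3% of the summits of a library, and for all summits in the windows. The estimate was needed since the lists give no read totals. It was tested on lists simulated from the same formula, which cannot show that the formula holds for the deposited lists. The genome sequence of GRCm38 was not used here, so sequences are those of the RefSeq promoter table.

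All 10 genes were named. Sites were named where 2 or more libraries called them, and for each gene the nearest to its start and the best ranked by −log10 q. Of the 69 pathway genes, those with a summit in 3 or more libraries were named. The genes, lists and rules were chosen with earlier results of these data known. Alternatives were other windows, distinct regions, a −log10 q of at least 3, lists of equal length, dense bins left out, density over all chromosomes, other joining rules, at least 10 fragments, each library left out, pairing by replicate number and, added after the data were seen, chromosomes only, the Nodal window left out and counts without hmC-Seal replicate 2. Scripts ran under Python 3.11.15 with scipy 1.17.1, numpy 2.4.6 and pandas 2.3.3.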

Additional observations from a re-analysis of the deposited data

How the results depend on the processing

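With lists cut to the 227 summits of highest −log10 q, the length of the shortest list, no summit was left in the windows. All 3 share differences were then 0, the ratios to the expected number were 0 in bisulfite and hmC-Seal, and the numbers of sites in more than one library and of genes with a site in both replicates of a preparation were 0. For the 227 summits of conventional replicate 1, only 0.151 were expected in the windows. Zeros were therefore likely in cut lists of any preparation, and this alternative cannot compare them. A window of 20 kb raised the ratio to 4.41 in bisulfite and 3.70 in hmC-Seal, and a window of 50 kb gave 2.33 and 2.55, against 1.56 and 1.68 at 100 kb. Such ratios were not computed for all genes. With at least 10 fragments, a setting that also drops summits without an estimate, the hmC-Seal ratio was 3.34. Leaving out 1 hmC-Seal library gave hmC-Seal ratios from 1.12 to 3.34, and the bisulfite ratio was 0.911 without bisulfite replicate 2 and 2.43 without replicate 1. Leaving out 1 library gave 2 to 4 sites in more than one library, the lowest without hmC-Seal replicate 1, and a difference between hmC-Seal and bisulfite shares from -0.0459 to 0.120 percentage points. Without the Nodal window, added after the data were seen, that difference was -0.0224. The causes were not tested. The other alternatives kept the direction of the share differences, and the other ratios moved by less than 1 SD between replicates. With conventional shares of 0 throughout, the differences against conventional could not have reversed, so only the difference between hmC-Seal and bisulfite could change direction. Conventional counts stayed at 0 under all alternatives run.

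Replicate numbers pair conventional and bisulfite libraries by pool in the study's methods, and the correlation of paired shares could not be checked since both conventional shares were 0. With a replicate block (paired sign flips of the shares, smallest p 0.5), the differences were 0.169 (exact permutation p = 0.5), 0.132 (exact permutation p = 0.5) and 0.0368 percentage points (exact permutation p = 1), and no call changed. The part of depth in the zeros of the conventional lists was not tested, and the summits of hmC-Seal replicate 2 at these genes rest on 3 to 12 estimated fragments.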
